A study of Mus musculus with 4 samples.

Results

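The genes described here encode translation initiation factors. They were chosen as all rows of the count table whose gene symbol begins with Eif and a digit from 1 to 6, which gave 53 of 17391 genes. The choice used names only and no measured value. Counts came from Drop-seq, which captures single cells in droplets with barcoded beads and reads messenger RNA from near its 3′ end. The cells were primary Gli1-positive kidney cells of male mice, 12 weeks old. In the kidney, Gli1 is found in mesenchymal cells that can become myofibroblasts. All cultures spent 2 h without serum. The library labelled 0 h was a control harvested at that point without TGF-β, and the other 3 libraries received 1 ng/ml TGF-β for 6, 12 or 24 h. With 1 library per time point there is no replicate check for any difference below, and no test was possible. The labels do not say how many animals a culture came from. Time in TGF-β and time out of serum cannot be told apart, as they ran together.

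Initiation is the step at which a ribosome is placed on a messenger RNA. eIF4E binds the cap, eIF4G bridges it to the ribosome, and the helicase eIF4A opens the leader, while eIF2 brings the initiator tRNA and eIF3 holds the small ribosomal subunit together with eIF1, eIF1A and eIF5. Kinases that phosphorylate eIF2 and the eIF4E-binding proteins downstream of mTORC1 are the best known points at which cells turn initiation down.

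The libraries differed in depth and content. From 0 to 24 h they held 192, 658, 1120 and 1328 barcodes and 106826, 778793, 5687966 and 6166324 counts. Barcodes of 1000 or more counts numbered 13, 80, 865 and 933 and held 15.4%, 74.1%, 97.8% and 97.6% of the counts. No barcode sequence (0) was shared between libraries, compared as written. Barcodes that contain the letter N, an uncalled base, numbered 18, 18, 234 and 229 in time order. The library labelled 0 h had tubule markers and few mesenchymal ones, against what its label says. There, 8 of 11 mesenchymal markers were without a count and their summed level was 46.8 CPM (counts scaled to a library total of 1e+06), against 7675 to 14076 CPM in the treated libraries. Proximal tubule markers summed to 16326 CPM at 0 h and to 1.93 to 2.57 CPM in the treated libraries. Malat1 took 32.2% of counts at 0 h and 0.947% to 1.24% later, and ribosomal protein genes took 0.355% at 0 h and 15.7%, 11.1% and 15.6% at 6, 12 and 24 h. Comparisons therefore lead with the 3 treated libraries. Levels are sums over all barcodes of a library, in which fewer cells of a type and less RNA per cell cannot be told apart. A gene's level is compared only with its own level in another library.

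The starts of some members are shown because messenger RNAs that begin in a run of pyrimidines are the best known targets of mTORC1 control of translation. RefSeq start windows, on build GRCm38.p6, were found for 43 of the 53 members. A run of 8 or more bases that are all C or T, within 5 bases of the start and on the gene's own strand only, was found in 9 of 43 members (20.9%). It was found in 1445 of 11847 genes of the count table (12.2%) and in 24 of 64 ribosomal protein genes (37.5%). Each window has 30 bases with the start in its middle, and capitals mark the longest such run as far as it lies in the window. The run of Eif2b5, of 21 bases, begins before its window. The window of Eif3l holds a further run, left in lower case, after the marked one.
Eif2b5, chr16:20498802-20498831, + strand: CCTTCCTCTTTCTCTCCCTgcaactacacc
Eif2s3y, chrY:1010580-1010609, + strand: gcggaggccacagccaCTTCCTTCTTTCgt
Eif3f, chr7:108934400-108934429, + strand: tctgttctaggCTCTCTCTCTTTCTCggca
Eif3l, chr15:79075208-79075237, + strand: gcgcggagTTCTTCTTCCgctctctcccac
Eif3j1, chr2:122028565-122028594, + strand: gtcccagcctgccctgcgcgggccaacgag
Eif4a2, chr16:23107453-23107482, + strand: ccgcggaaaccccgtaggagcagggcggcc
These 6 were picked after their levels were seen, as members that differed between treated libraries in the results below. The first 4 hold such a run and the last 2 do not. The 4 shown with a run are all of that kind among the members called between treated libraries in all barcodes. Of 7 members called higher, all 7 with a window, 4 had a run. Of 4 called lower, 3 had a window and 0 a run. Eif3j1 is in both tallies, as it was called lower in some comparisons and higher in another. The tallies depend on the barcodes used. In barcodes of 1000 or more counts Eif3a, Eif4e and Eif4g1 were also called lower, and Eif2s3y and Eif4g3 were not called. Eif4e holds a run of 10 bases in a window and none in another, and Eif3a and Eif4g1 hold none. Eif4g3, Eif3c and Eif5a are called members without a run whose windows are not printed. A run is a description of the letters and shows no control of the gene. Lack of a run by this rule does not show that a messenger RNA lacks a pyrimidine start. The rule depends on the annotated start and on the length set, and it left most ribosomal protein genes without a run. Members without a window were not examined.

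Together the 53 genes took 1.33%, 1.30% and 1.18% of all counts at 6, 12 and 24 h, and 0.455% in the library labelled 0 h. Their summed levels in the treated libraries were 13345, 12956 and 11831 CPM in time order. The ratio was 0.971 (95% interval 0.951 to 0.991) for 12 h against 6 h and 0.913 (0.904 to 0.923) for 24 h against 12 h. These intervals, like all below, cover counting error only. With plain totals the family took a slightly smaller share in each later treated library. With each barcode given equal weight the order of 6 and 12 h turned, with 12729 CPM at 6 h and 12810.5 CPM at 12 h, while 24 h stayed lowest at 11743 CPM. In single barcodes of 1000 or more counts the median shares were 1.36%, 1.28% and 1.17% in time order, so the medians over barcodes had the same order.

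**Figure D1:**
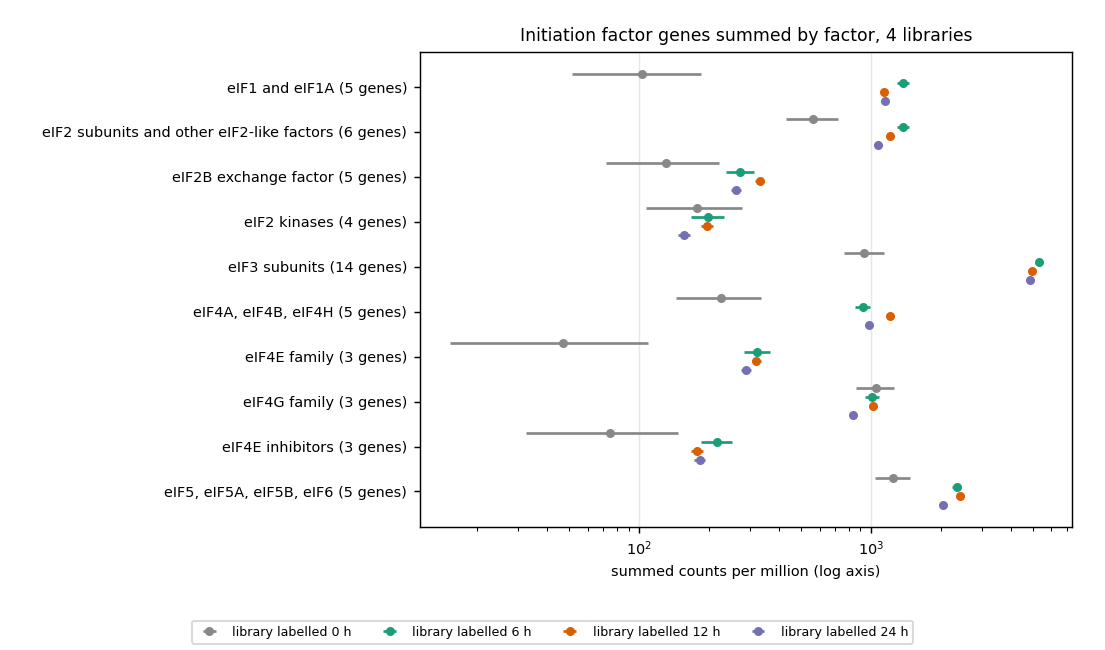
Summed CPM of each factor's genes in the 4 libraries, on a log axis, with exact 95% intervals for counting error. The 14 eIF3 genes stand at 5310, 4944 and 4865 CPM at 6, 12 and 24 h. Genes of eIF4A, eIF4B and eIF4H lie farther apart, at 919, 1204 and 984 CPM. The library labelled 0 h lies below the treated libraries for 8 of the 10 groups. The groups where it does not are the eIF4G family and the eIF2 kinases.

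Few members differed strongly between treated libraries. A member was called when it stood at least 1.5-fold apart on the log2(CPM + 10) scale and averaged at least 20 CPM in the compared pair. From 6 to 12 h, 47 members passed that floor. Of these, 4 were higher (Eif2b5, Eif2s3y, Eif3l and Eif4g3), where 16.9% of all genes were higher by the same rule. The 2 lower members were Eif3j1 and Eif3j2, where 7.27% of all genes were lower. The median log2 ratio was 0.06 for members and 0.15 for all genes. With TMM scaling 2 members were higher and 5 lower, beside 11.5% and 10.3% of all genes. With DESeq2 size factors they numbered 2 and 6, beside 11.1% and 10.7%. Those scalings moved the median of all genes to 0.03 and 0.02 and turned the median of members to −0.077 and −0.092.

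Between 12 and 24 h, 46 members passed. Only Eif3j1 was higher (1 member, beside 2.38% of all genes) and 0 were lower, beside 3.4% of all genes. The median log2 ratio was −0.22 for members and −0.11 for all genes. Between 6 and 24 h, 47 passed. The 3 higher were Eif3f, Eif3l and Eif4a2, beside 13.5% of all genes, and the 4 lower were Eif3c, Eif3j1, Eif3j2 and Eif5a, beside 8.95%. The medians were −0.19 for members and 0.04 for all genes.

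Barcodes of 1000 or more counts, taken apart, changed some of the names and the count lower from 6 to 24 h. From 6 to 12 h the 4 higher members were Eif2b5, Eif3f, Eif3l and Eif4a2 (15.2% of all genes were higher) and the 2 lower were again Eif3j1 and Eif3j2 (7.71% of all genes were lower). From 12 to 24 h Eif3j1 alone was higher (2.43% of all genes) and 0 were lower (3.34%). From 6 to 24 h the same 3 members were higher (12.2% of all genes). There, 7 were lower (10.4% of all genes), namely Eif3a, Eif4e and Eif4g1 beside the 4 of all barcodes.

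**Figure D2:**
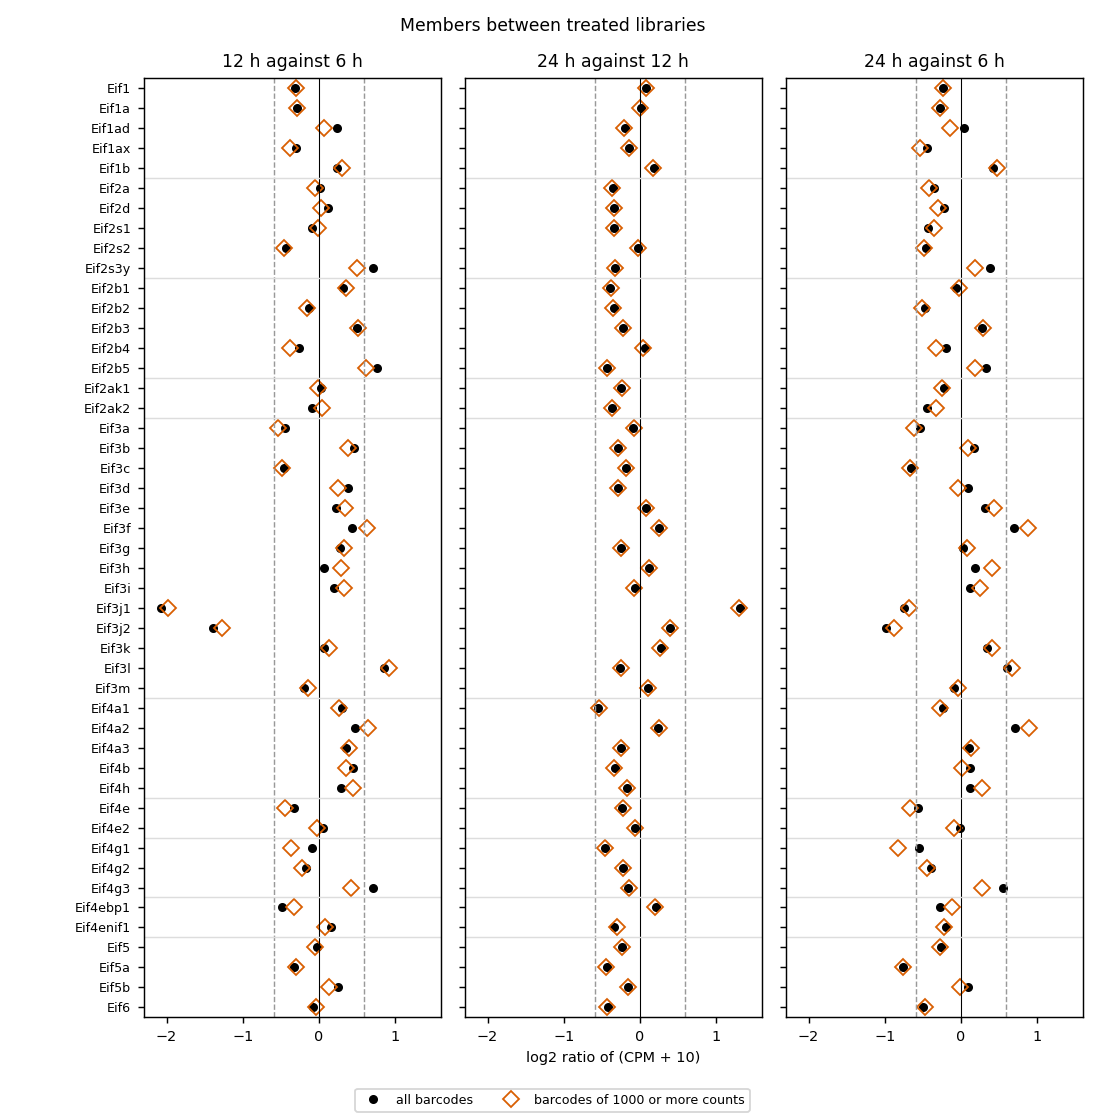
Log2 ratio of CPM + 10 for each of the 47 members that averaged at least 20 CPM over the treated libraries, in all barcodes (filled circles) and in barcodes of 1000 or more counts (open diamonds), with dashed lines at 1.5-fold. Eif3j1 stands at −2.07 for 12 h against 6 h and at 1.32 for 24 h against 12 h, farther from 0 than any other member in both.

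Eif3j1, at chr2:122028546-122056598 on the + strand of mm10 in GENCODE M21, encodes a loosely bound subunit of eIF3 that reaches into the channel through which messenger RNA enters the ribosome. In time order its levels were 93.6, 249, 51.9 and 144 CPM, from 10, 194, 295 and 888 counts. The 12 h library was the low one, and its interval did not meet those of the other treated libraries. At 12 h Eif3j1 was 4.80-fold lower than at 6 h (3.99 to 5.78). At 24 h it was 2.78-fold higher than at 12 h (2.43 to 3.18) and still below 6 h, with a ratio of 0.578 (0.494 to 0.679). It was counted in 92 of 658 barcodes at 6 h, 239 of 1120 at 12 h and 494 of 1328 at 24 h, and the barcode with the most held 16, 3 and 10 counts. Without those barcodes the ratio of 12 h to 6 h was 0.217.

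Eif3j2 on chromosome 18 is a near-identical copy of Eif3j1. It had no count at 0 h and stood at 43.7, 10.5 and 17.0 CPM later, so it too was lowest of the treated libraries at 12 h. The 12 h level was 4.14-fold lower than at 6 h (2.63 to 6.41). Of the 51-base words in the last 600 bases of Eif3j2, 90.7% also lie in Eif3j1 transcripts, and 9.60% of those of Eif3j1 lie in Eif3j2, so reads may be split between the genes and the Eif3j2 values are uncertain. Summed, the pair was 4.69-fold lower at 12 h than at 6 h (3.95 to 5.56) and 2.58-fold higher at 24 h than at 12 h (2.28 to 2.92). Eif3j1 made up 85.1%, 83.1% and 89.4% of the pair's counts at 6, 12 and 24 h.

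The low level at 12 h was present at every barcode depth. At 6 h Eif3j1 stood at 288 CPM in barcodes under 1000 counts, 123 CPM from 1000 to under 5000, 269 CPM from 5000 to under 10000 and 256 CPM at 10000 or more. These 6 h classes held 578, 47, 11 and 22 barcodes, and the 22 deepest held 103 of the gene's 194 counts. At 12 h the same classes held 40.6, 50.6, 54.8 and 50.6 CPM, the first on 5 counts (13.2 to 94.6 CPM). At 24 h they held 195, 134, 136 and 153 CPM. The 12 h value was the lowest of the 3 libraries in each class. In 1 class, from 1000 to under 5000 counts, the 6 h value rested on 12 counts and lay below that of 24 h. Its interval there (63.7 to 215 CPM) met that of 12 h (38.6 to 65.1 CPM). The 12 other eIF3 genes summed to between 4644 and 5338 CPM in all classes and libraries, without such a gap. These depth classes were chosen after the data were seen.

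**Figure D3:**
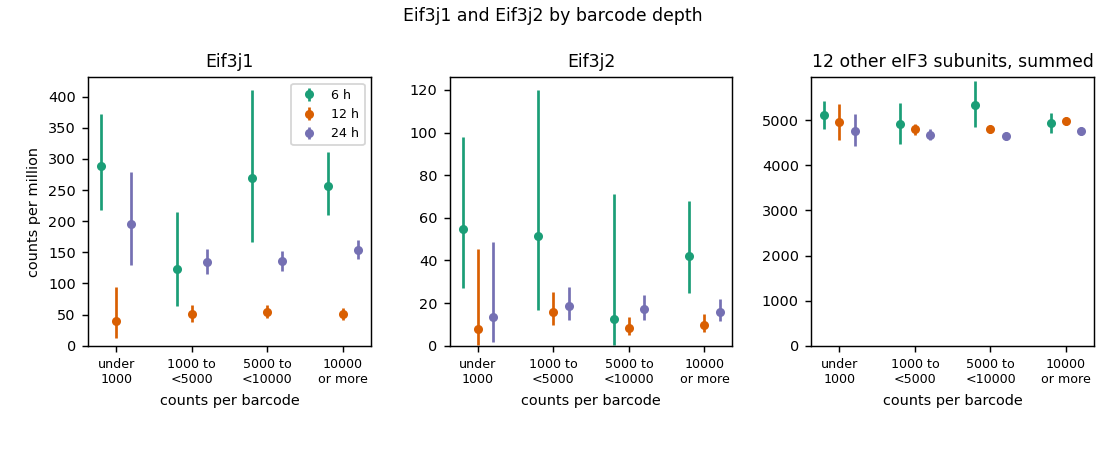
CPM of Eif3j1, of Eif3j2 and of the 12 other eIF3 genes summed, by counts per barcode in the 3 treated libraries, with exact 95% intervals. Eif3j1 at 12 h stays between 40.6 and 54.8 CPM in the 4 depth classes, while the summed other subunits stay between 4644 and 5338 CPM.

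Overlapping genes and shared sequence are set here beside the low level of Eif3j1 at 12 h. Exons of Eif3j1 overlap those of Spg11, on the opposite strand, over 1107 bases and whether the counting used strand is unknown here. Spg11 stood at 28.2, 17.2 and 13.6 CPM at 6, 12 and 24 h and was lowest at 24 h. Over all genes, those called lower at 12 h against 6 h were 33 of 83 with 50% or more of their end words shared with another gene (39.8%). They were 222 of 1966 with fewer shared (11.3%) and 185 of 4013 with none (4.61%). Without ribosomal protein genes the shares were 38.7%, 9.97% and 4.61%. Among members these classes held 1, 25 and 21 genes, with Eif3j2 called lower in the first, Eif3j1 in the next and 0 in the last. At 24 h against 12 h the shares of genes called higher were 17.6%, 4.43% and 1.07%. Without ribosomal protein genes these were 16.7%, 2.87% and 1.07%. The part of shared sequence in the Eif3j1 values was not tested, since reads could not be realigned. Eif3m, with 42.3% of its words shared, and Eif4a1, with 35.0%, were not called at 12 h against 6 h and stood at 231, 201 and 217 CPM and at 266, 331 and 224 CPM.

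The other eIF3 subunits include those of the core that binds the small ribosomal subunit. Eif3a, the largest scaffold subunit, stood at 534 CPM at 0 h and at 1636, 1194 and 1122 CPM at 6, 12 and 24 h. Eif3c, its partner in the core, stood at 122, 755, 545 and 477 CPM in the same order. Both were highest at 6 h, with ratios of 24 h to 6 h of 0.686 (0.646 to 0.729) and 0.632 (0.578 to 0.692), and Eif3c alone of them passed the limit in all barcodes.

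Eif3l and Eif3f lay the other way. Eif3l, a peripheral subunit next to Eif3k, stood at 28.1 CPM (3 counts) at 0 h and at 109, 206 and 170 CPM later, a ratio of 1.88 (1.51 to 2.38) for 12 h against 6 h. Eif3f, a core subunit with an MPN domain, stood at 18.7 CPM (2 counts) at 0 h and at 226, 310 and 372 CPM later, a ratio of 1.64 (1.41 to 1.93) for 24 h against 6 h. Both were lowest at 6 h among the treated libraries. For 12 h against 6 h, all 14 eIF3 genes passed the floor. Of these 1 was higher and 2 lower, beside 16.9% and 7.27% of all genes. Their median log2 ratio was 0.13, beside 0.15 for all genes. The remaining subunits were not called between treated libraries in all barcodes. Of these, Eif3e, Eif3h and Eif3k were highest at 24 h, at 354, 482 and 332 CPM. Eif3b, Eif3d, Eif3g and Eif3i were highest at 12 h, at 301, 426, 270 and 381 CPM. Exons of Eif3d overlap those of Gm17638 over 2151 bases on the opposite strand, and Gm17638 had 7 counts at 12 h and 2 at 24 h.

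**Figure D4:**
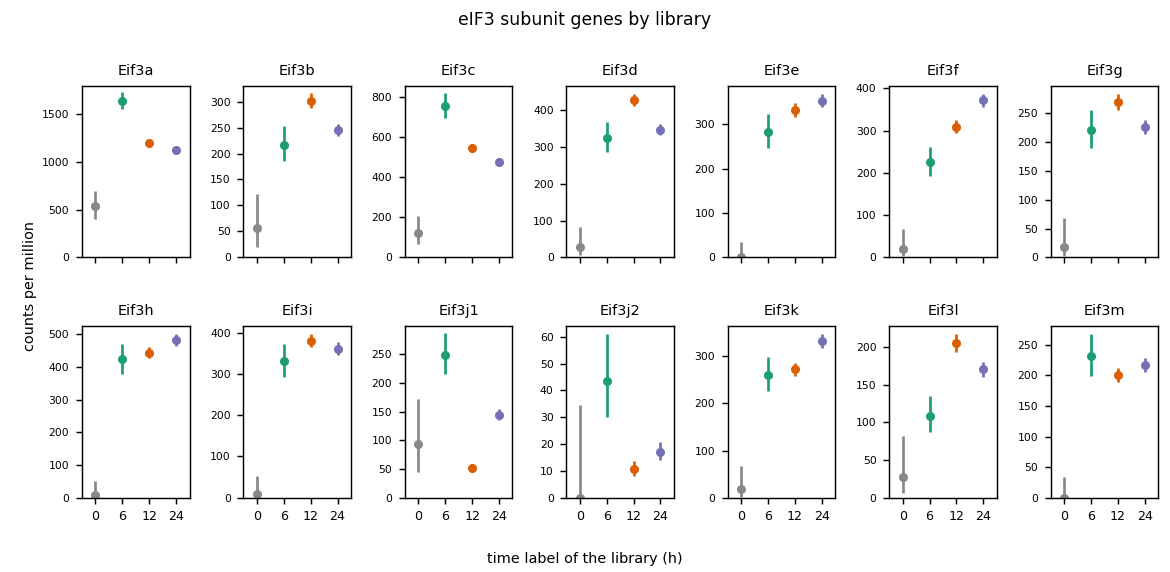
CPM of each of the 14 eIF3 genes in the 4 libraries, each panel on its own axis from 0, with exact 95% intervals. Among the treated libraries, Eif3j1 and Eif3j2 are the panels with a clear low point at 12 h (51.9 and 10.5 CPM), while Eif3a and Eif3c are highest at 6 h. Eif3j2 had no count at 0 h.

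eIF1 and eIF1A keep the scanning ribosome open until a start codon is met. Their 5 genes summed to 1379, 1138 and 1148 CPM in the treated libraries, and 0 of 5 were called in any comparison of treated libraries. Of all genes, 16.9% were higher and 7.27% lower at 12 h against 6 h. The shares were 2.38% and 3.4% at 24 h against 12 h, and 13.5% and 8.95% at 24 h against 6 h. A count of 0 among 5 genes cannot be told from these shares. Eif1 stood at 65.5 CPM at 0 h (7 counts) and at 731, 584 and 616 CPM later. Eif1ax, the X-linked eIF1A gene, had no count at 0 h and stood at 317, 255 and 231 CPM later. Both were highest at 6 h, and the 12 h to 6 h ratios of 0.800 (0.732 to 0.876) and 0.805 (0.703 to 0.925) were nearly the same. Eif1a and Eif1ax shared the pair's counts alike in the treated libraries, with Eif1a at 45.0%, 45.2% and 47.9%.

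eIF2 carries the initiator tRNA. Eif2s1, the α subunit that the stress kinases phosphorylate, stood at 37.4 CPM at 0 h (4 counts) and at 298, 278 and 218 CPM at 6, 12 and 24 h. Eif2s2, the β subunit, stood at 178 CPM at 0 h (19 counts) and at 810, 597 and 588 CPM later. Neither was called between treated libraries. Eif2s3y, the Y-linked gene of the γ subunit, stood at 262 CPM at 0 h (28 counts) and at 86.0, 146 and 114 CPM later. It was highest in the library labelled 0 h and lowest at 6 h, with a ratio of 1.70 (1.33 to 2.22) for 12 h against 6 h. In barcodes of 1000 or more counts that ratio was 1.46 (1.12 to 1.94), which did not pass the limit. Its X-linked counterpart Eif2s3x, at 16.7, 15.3 and 18.0 CPM, stayed under the floor, and 57.9% of its end words are shared with the pseudogene Gm2223.

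eIF2B reloads eIF2 with GTP and is the enzyme that phosphorylated eIF2 inhibits. Eif2b5, its catalytic ε subunit, had no count at 0 h and stood at 53.9, 98.1 and 70.1 CPM at 6, 12 and 24 h. It was highest at 12 h, with a ratio of 1.82 (1.33 to 2.55) to 6 h on 42 counts at 6 h. Eif2b2, the β subunit, stood at 28.1 CPM at 0 h (3 counts) and at 101, 92.1 and 70.4 CPM later, and was not called between treated libraries. The 5 subunits together had a ratio of 1.21 (1.05 to 1.41) for 12 h against 6 h and 0.791 (0.740 to 0.846) for 24 h against 12 h.

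The eIF2 kinases each answer another stress. Eif2ak1, the haem-regulated kinase HRI, stood at 37.4 CPM at 0 h (4 counts) and at 64.2, 65.8 and 53.7 CPM at 6, 12 and 24 h. Eif2ak2, the double-stranded RNA kinase PKR, stood at 93.6 CPM at 0 h (10 counts) and at 116, 108 and 82.1 CPM later. Eif2ak3 (PERK) and Eif2ak4 (GCN2) stayed under 16 CPM in every treated library, with 2 and 12 counts at 6 h. None (0 of the 2 that passed) was called between treated libraries. In those comparisons 2.38% to 16.9% of all genes were higher and 3.4% to 8.95% lower. Among 10 genes of the integrated stress response that acts through these kinases, 5 passed the floor. Of these, 1 was lower than at 6 h both at 12 h (7.27% of all genes) and at 24 h (8.95%). This was Asns, asparagine synthetase and a target of Atf4, at 113, 49.2 and 35.5 CPM.

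The cap-binding factors come next, followed by the helicase unit. Eif4e, the cap-binding protein, stood at 18.7 CPM at 0 h (2 counts) and at 84.7, 65.8 and 54.3 CPM at 6, 12 and 24 h, with a ratio of 0.641 (0.491 to 0.848) for 24 h against 6 h that did not pass the limit in all barcodes. In barcodes of 1000 or more counts the ratio was 0.586 (0.439 to 0.797) and passed. Eif4e2, which binds caps without recruiting eIF4G, stood at 18.7 CPM at 0 h (2 counts) and at 226, 235 and 223 CPM later.

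The genes of eIF4A, eIF4B and eIF4H summed to 919, 1204 and 984 CPM and were highest at 12 h. Their ratio was 1.31 (1.21 to 1.42) for 12 h against 6 h and 0.817 (0.789 to 0.846) for 24 h against 12 h. In all barcodes 0 of the 5 were called in either comparison. In the first, 16.9% of all genes were higher and 7.27% lower, and in the second 2.38% and 3.4%. Eif4a1 stood at 18.7 CPM at 0 h (2 counts) and at 266, 331 and 224 CPM later. Eif4b, which stimulates the helicase, stood at 37.4 CPM at 0 h (4 counts) and at 268, 369 and 292 CPM later. Eif4a2, the other eIF4A gene of the cytoplasm, stood at 131 CPM at 0 h (14 counts) and at 79.6, 115 and 136 CPM later. It was 1.71-fold higher at 24 h than at 6 h (1.32 to 2.25). The Eif4a1 share of the pair was 77.0% at 6 h (71.5% to 81.8%), 74.3% at 12 h (72.6% to 76.0%) and 62.1% at 24 h (60.1% to 64.1%), so the 24 h share lay below both others.

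eIF4G is the scaffold between cap and ribosome. Eif4g1 stood at 234 CPM at 0 h (25 counts) and at 307, 288 and 207 CPM later, and Eif4g3, its paralog, at 683 CPM at 0 h (73 counts) and at 137, 230 and 206 CPM later. Eif4g3 was highest in the library labelled 0 h and lowest at 6 h, with a ratio of 1.67 (1.37 to 2.06) for 12 h against 6 h. In barcodes of 1000 or more counts that ratio was 1.36 (1.11 to 1.69), which did not pass the limit, and Eif4g1 had a ratio of 0.552 (0.477 to 0.640) for 24 h against 6 h, which did. Eif4g1 made up 25.5% of the pair's counts at 0 h, 69.1% at 6 h, 55.6% at 12 h and 50.1% at 24 h, and these 4 intervals did not meet. Eif4g2, which lacks the eIF4E-binding part, stood at 131 CPM at 0 h (14 counts) and at 562, 501 and 426 CPM later.

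**Figure D5:**
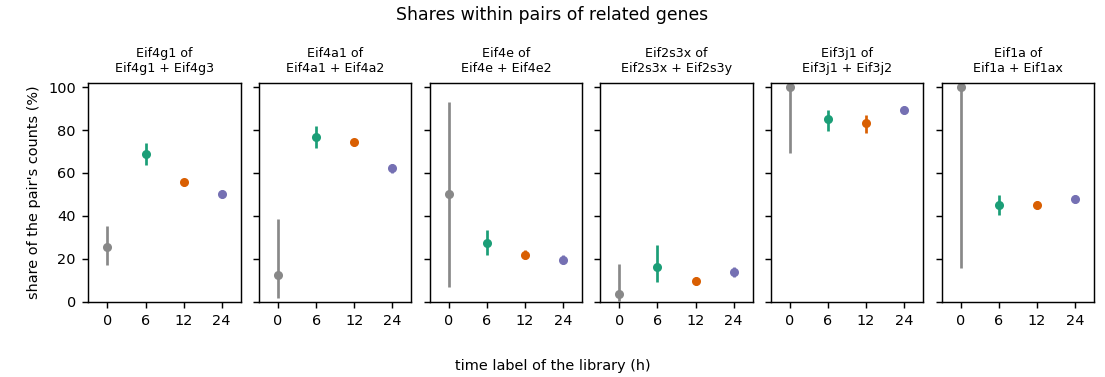
Share of the first gene in the counts of 6 pairs of related genes, in percent, with exact binomial 95% intervals, for the 4 libraries. The Eif4g1 share is 69.1% at 6 h and 50.1% at 24 h and the Eif4a1 share 77.0% and 62.1%, while the Eif1a share stays between 45.0% and 47.9% in the treated libraries.

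The inhibitors of eIF4E hold it away from eIF4G. Eif4ebp1, the mTORC1 target that binds eIF4E when unphosphorylated, had no count at 0 h and stood at 175, 122 and 143 CPM at 6, 12 and 24 h. Its ratio of 12 h to 6 h was 0.701 (0.582 to 0.848), which passed the limit with TMM scaling and DESeq2 size factors and not with plain totals. Eif4enif1, which carries eIF4E into the nucleus, stood at 46.8 CPM at 0 h (5 counts) and at 29.5, 33.9 and 24.6 CPM later. Of 18 genes of cap, poly(A) and mTORC1 control, 10 passed the floor. None (0) was called at 12 h against 6 h, where 16.9% of all genes were higher and 7.27% lower. None (0) was called at 24 h against 12 h either, beside 2.38% and 3.4%. The mTORC1 subunit Rptor was the 1 gene lower at 24 h than at 6 h, beside 8.95% of all genes. It stood at 26.4 against 44.9 CPM, on 35 counts at 6 h.

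The last group acts at start selection and subunit joining. Eif5, the GTPase activator of eIF2, stood at 403 CPM at 0 h (43 counts) and at 616, 606 and 514 CPM later, and was not called between treated libraries. Eif5b, the GTPase of subunit joining, stood at 786 CPM at 0 h (84 counts) and at 1018, 1215 and 1085 CPM later. Exons of Eif5b overlap those of Rev1 on the opposite strand over 1643 bases, and Rev1 stood at 52.6 to 66.7 CPM in the treated libraries.

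Eif5a, which helps ribosomes through difficult stretches of elongation and carries the modified residue hypusine, stood at 28.1 CPM at 0 h (3 counts). At 6, 12 and 24 h it stood at 517, 412 and 302 CPM, lower in each later treated library. Its ratio was 0.583 (0.523 to 0.651) for 24 h against 6 h, the lowest of the group. Eif6, which keeps the large subunit apart, stood at 189, 178 and 131 CPM and was not called.

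The members not yet described were not called between treated libraries. Eif2a and Eif2d, which can deliver initiator tRNA by other routes, stood at 93.7, 94.4 and 71.5 CPM and at 73.2, 80.2 and 61.1 CPM at 6, 12 and 24 h. The eIF2B genes Eif2b1, Eif2b3 and Eif2b4 lay between 21.6 and 73.1 CPM. Eif1b and Eif1ad lay between 34.7 and 49.8 CPM, Eif1a between 210 and 259 CPM, and Eif4a3, the helicase of the exon junction complex, and Eif4h between 127 and 232 CPM. The 6 members that averaged under 20 CPM over the treated libraries were Eif2ak3, Eif2ak4, Eif2s3x, Eif4e3, Eif4ebp2 and Eif5a2. Of these, Eif5a2, a paralog of Eif5a, was the lowest, with 2, 21 and 21 counts.

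Other steps of translation are given for comparison. Of all genes, 16.9% were higher and 7.27% lower at 12 h against 6 h. At 24 h against 12 h these shares were 2.38% and 3.4%, and at 24 h against 6 h 13.5% and 8.95%. Of 9 further initiation and scanning genes 7 passed the floor, and 1, Denr, a reinitiation factor that works with Mcts1, was lower at each step, at 1628, 771 and 463 CPM. Bzw1, an eIF5 mimic, was also lower at 24 h than at 6 h, at 257 against 465 CPM. Of 9 elongation factor genes 7 passed at 12 h against 6 h, and 1, the translocase gene Eef2, was higher, at 1933 against 1280 CPM. In barcodes of 1000 or more counts Eef2 did not pass the limit (0 elongation factor genes called), and Mcts1 was called higher at 12 h against 6 h, with 108 against 69.3 CPM in all barcodes. Of 6 termination and recycling genes 5 passed, 0 were called at either step, and 2, Etf1 and Gspt1, were lower at 24 h than at 6 h. Of 80 ribosomal protein genes that passed, 37 were lower at 12 h than at 6 h and 35 were higher at 24 h than at 12 h. Their medians were −0.53 and 0.54, beside 0.15 and −0.11 for all genes. The initiation factor medians were 0.06 and −0.22, and the first turned negative under the TMM, DESeq2, equal weight and other-total settings given in the last section. Ribosomal protein genes were among those with shared sequence described above.

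Against the library labelled 0 h most members were higher in every treated library. The 3 comparisons share that 1 library, in which 1 count is 9.36 CPM and 486 counts fell on members. At 6 h 36 of 47 members were higher, beside 43.6% of all genes, and 4 were lower, beside 35.8%. At 12 h 37 of 48 were higher (46.1% of all genes) and 4 lower (32.2%). At 24 h 32 of 46 were higher (43.5%) and 5 lower (34.9%). The median log2 ratios were 2.13, 2.15 and 1.89 for members and 0.21, 0.37 and 0.23 for all genes, and with genes without a count at 0 h set to 3 counts the members' medians were 1.78, 1.74 and 1.78. The 0 h library also held the tubule markers, the high Malat1 and the low ribosomal protein share given above, and their part in these differences was not tested.

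By factor the difference from 0 h was uneven. The eIF3 genes summed to 936 CPM at 0 h against 4865 to 5310 CPM later, and eIF1 and eIF1A to 103 against 1138 to 1379 CPM. The eIF4G family summed to 1048 CPM at 0 h and 839 to 1018 CPM later, and the eIF2 kinases to 178 CPM and 156 to 198 CPM. Of the 8 members without a count at 0 h, against a floor of 3 counts, Eif1ax was at least 8.23-fold higher in each treated library, Eif3e at least 10.1-fold, Eif3m at least 7.15-fold and Eif4ebp1 at least 4.36-fold. The lower ends of the 95% intervals, over the treated libraries, reached down to 6.68, 8.11, 5.80 and 3.53 for these. On the same floor Eif2b5 was at least 1.92-fold and Eif1ad at least 1.33-fold higher, with lower interval ends of 1.49 and 1.01. Eif3j2 lay above the floor only at 6 h, by at least 1.55-fold, and Eif5a2 lay under it in every treated library. Eif2s3y and Eif4g3 were called lower than at 0 h in all 3 treated libraries. Eif2ak3, Eif2ak4, Eif2b4, Eif4ebp2 and Eif4enif1 also had lower CPM than at 0 h in all 3, without a call in each. They had 2 to 6 counts each at 0 h. Eif4g3 spans 215487 bases of chromosome 4. Across members, Spearman's rho between gene span and the log2 ratio to 0 h was −0.34, −0.33 and −0.37 over 47, 48 and 46 genes, and over all genes that passed it was −0.29, −0.27 and −0.28. Genes within a library are not independent replicates, and these are descriptions.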

How the data were processed

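The authors deposited raw counts for each gene in each barcode of 4 Drop-seq libraries, as whole numbers. The submitters' processing notes name STAR 2.5.3a and the build mm10. Not given in the sources used here are the counter, annotation, barcode filter, strand setting and collapse of molecular identifiers.

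Counts were summed per library over all barcodes and scaled to a total of 1e+06 per library (CPM). No column lacked a sample. Scrublet in scanpy 1.11.5 called 33, 9, 18 and 14 barcodes doublets in time order, and they were kept. CPM intervals are exact Poisson, ratios carry exact conditional binomial intervals and shares exact binomial (Clopper-Pearson) intervals, all at 95% and for counting error only. Log2 ratios use a pseudocount of 10 CPM, which understates differences of low genes. A member was called at 1.5-fold or more with a mean of 20 CPM or more in the pair of libraries. A gene without a count was bounded by 3 counts per library. No p-value was computed.

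The members, lists, rules and tests were chosen with earlier results of these data known. Levels in each of the 4 libraries were given for members called between treated libraries, for Eif3j1 and Eif3j2, and for the 2 highest of each factor group, which made 28 members, and others are named where a result turns on them. In each pathway list up to the 4 genes with the largest differences could be named. Shared sequence was sought as 51-base words of the last 600 bases of a gene's transcripts that occur anywhere in another gene's transcripts, and positions and overlaps were taken, from GENCODE M21 on GRCm38, which is mm10. Start windows are from RefSeq on GRCm38.p6. The calling code was tested on simulated data. Alternatives were other barcode sets, TMM (edgeR 4.0.16) and DESeq2 1.42.0 size factors, other totals, equal weight per barcode, other pseudocounts, floors and fold limits, and thinning. Depth classes and the split of all genes by shared sequence were added after seeing the data. The work ran in R 4.3.3 and Python 3.11.15 with scipy 1.17.1, pandas 2.3.3, numpy 2.4.6 and matplotlib 3.10.9.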

Additional observations from a re-analysis of the deposited data

How the results depend on the processing

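With 1 library per time point, none of these differences can be set against replicate error, and the 106826 counts at 0 h leave single members there with few counts. No paired analysis was possible because each time point has 1 library. Of 168 recomputed counts of called members, 130 stayed within 1.5 times. Of 78 medians, 38 moved by at most 0.1 and 4 changed sign. Eif3j1 was called lower at 12 h against 6 h under each setting tried.

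At 12 h against 6 h, higher members numbered 2 with TMM (11.5% of all genes under the same setting) and 2 with DESeq2 size factors (11.1%), 8 of 47 with equal weight per barcode (27.9%), 1 with a pseudocount of 50 CPM (5.30%) and 0 at a 2-fold limit (4.42%). Lower members numbered 5 with TMM (10.3%), 6 with DESeq2 size factors (10.7%) and 1 with a floor of 50 CPM (7.94%). The median of members turned to −0.077 with TMM, −0.092 with DESeq2 size factors, −0.032 with totals without mitochondrial and ribosomal protein genes and −0.0022 with equal weight. At 24 h against 12 h, equal weight gave 2 lower members (6.34%). At 24 h against 6 h, 7 members were lower in barcodes of 1000 or more counts (10.4%), 7 in barcodes of 500 or more genes (10.2%), 7 after thinning (10.5%) and 0 at 2-fold (3.06%). Higher members numbered 1 with a pseudocount of 50 CPM (4.84%) and 0 at 2-fold (3.77%).

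Against the library labelled 0 h, lower members in barcodes of 1000 or more counts numbered 10, 9 and 10 at 6, 12 and 24 h (46.2%, 43.3% and 45.6% of all genes), and in barcodes of 500 or more genes 10, 9 and 11 (47.1%, 44.0% and 47.0%). At 6 h they numbered 2 without doublets, with TMM, DESeq2 size factors, a pseudocount of 50 CPM or a 2-fold limit (29.1% to 36.6% of all genes). At 12 h they numbered 2 without doublets or with a pseudocount of 50 CPM, and 1 with TMM, DESeq2 size factors or a 2-fold limit (25% to 32.8%). At 24 h they numbered 2 under those settings, with totals without mitochondrial and ribosomal protein genes, and with a floor of 50 CPM (24.8% to 35.5%).

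The summed level of members was 4085 CPM at 0 h in barcodes of 1000 or more counts and 13658 CPM at 6 h in barcodes of 500 or more genes. With totals without mitochondrial and ribosomal protein genes it was 16499.9, 14962.5 and 14318 CPM at 6, 12 and 24 h, and with equal weight 12729, 12810.5 and 11743 CPM, which turned the order of 6 and 12 h. The Eif3j1 ratio of 24 h to 12 h was 3.23 with equal weight. By barcode depth, chosen after seeing the data, the ratio of 12 h to 6 h was 0.141 under 1000 counts and 0.410 from 1000 to under 5000, and that of 24 h to 12 h was 4.80 under 1000 counts. The ratio of 24 h to 6 h turned to 1.09 from 1000 to under 5000 counts for Eif3j1, on 12 counts at 6 h, and to 1.36 from 5000 to under 10000 for Eif3j2, on 1 count at 6 h.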
